A study of Mus musculus with 5 samples.

Results

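The 4 beta-type globin genes Hbb-y, Hbb-bh1, Hbb-bs and Hbb-bt and 6 regulators of globin switching, Bcl11a, Zbtb7a, Sox6, Myb, Lin28b and Igf2bp3, were followed in mouse fetal erythroid cells with and without an intact Csnk2b gene. The 10 genes were taken by symbol, and all 10 were found among the 39179 genes of the count table and passed the filter on low counts. The libraries hold poly(A) RNA from TER119-positive cells sorted from C57BL/6 fetal liver at 14.5 days post conception. The 3 control libraries carry the genotype Csnk2b+/+ Vav+/Cre and the 2 KO libraries Csnk2bfl/fl Vav+/Cre, so that both groups carry the Cre transgene. Its Vav1 promoter is active throughout the blood-forming system, and Csnk2b encodes CK2β, the regulatory subunit of casein kinase CK2. Nothing in the labels says whether a library came from 1 embryo or from a pool.

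Mice make embryonic beta-type globins, εy from Hbb-y and βh1 from Hbb-bh1, in the primitive red cells that arise in the yolk sac. The definitive red cells that arise in the fetal liver make the adult chains from Hbb-bs and Hbb-bt. In definitive cells the zinc finger proteins BCL11A and ZBTB7A (LRF) hold the embryonic genes silent with the help of chromatin corepressors, and SOX6 represses Hbb-y at its promoter. MYB keeps progenitors dividing and acts upstream of the adult program, while LIN28B and the RNA-binding protein IGF2BP3 are marks of fetal and embryonic cells and are tied to the let-7 microRNA pathway.

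The globin genes lie on the minus strand of chromosome 7 in build mm10, and all 10 members are annotated as protein-coding. Hbb-y (ENSMUSG00000052187) spans 103851749 to 103853216 and Hbb-bh1 (ENSMUSG00000052217) 103841637 to 103843164. Hbb-bs (ENSMUSG00000052305) spans 103826534 to 103828096 and Hbb-bt (ENSMUSG00000073940) 103812524 to 103813996. Sox6 lies on the same chromosome from 115470872 to 116038796. Zbtb7a, Myb and Lin28b are all on chromosome 10, at 81135220 to 81152995, 21124935 to 21160984 and 45376620 to 45486395. Bcl11a is on chromosome 11 from 24078056 to 24174123 and Igf2bp3 on chromosome 6 from 49085223 to 49214957.

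The first 90 coding bases of the 4 globin genes, from GENCODE M21 transcripts, are shown because they decide which genes a short read can tell apart. Capitals mark bases that differ from Hbb-bs, and Hbb-bs itself was set against Hbb-bt.
Hbb-y: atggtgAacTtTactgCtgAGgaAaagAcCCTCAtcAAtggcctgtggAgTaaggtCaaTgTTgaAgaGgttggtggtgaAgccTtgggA
Hbb-bh1: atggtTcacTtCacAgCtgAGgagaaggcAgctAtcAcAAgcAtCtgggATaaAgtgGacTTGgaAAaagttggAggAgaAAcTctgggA
Hbb-bs: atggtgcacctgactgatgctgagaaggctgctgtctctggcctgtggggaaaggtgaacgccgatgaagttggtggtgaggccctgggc
Hbb-bt: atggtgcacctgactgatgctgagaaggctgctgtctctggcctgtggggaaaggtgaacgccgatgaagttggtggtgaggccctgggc

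Hbb-y differed from Hbb-bs at 26 of these bases and Hbb-bh1 at 29, whereas Hbb-bs and Hbb-bt were identical here. Over the full coding sequence of 444 bases, Hbb-y and Hbb-bh1 were 76.4% identical to each other. The adult pair differed at a single base, C417T, counted from the first base of the start codon and written from Hbb-bs to Hbb-bt. No 50-base window of the Hbb-y or Hbb-bh1 transcript occurred in any other gene's transcript. By contrast, 65.8% of the 50-base windows of Hbb-bs and 58.3% of those of Hbb-bt occurred in the other adult gene, and 62.6% and 54.8% of the 100-base windows. The treatment of reads that map to both is not stated in these sources, so the level of each adult gene and their sum are uncertain, and a ratio to them is used here only to compare libraries.

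The promoter of the embryonic gene Hbb-y is shown because SOX6, named above, represses Hbb-y there. Those of the adult genes are shown for comparison. Each run gives the 120 bases before the RefSeq start on GRCm38.p6, minus strand. Hbb-y covers chr7:103853208-103853327, Hbb-bs chr7:103827929-103828048 and Hbb-bt chr7:103813924-103814043. Capitals mark matches, on either strand, to CCAAT, to the CACCC box CCNCACCC, to TGACCA (the sequence bound by BCL11A) and to the TATA-like ATAAAA.
Hbb-y: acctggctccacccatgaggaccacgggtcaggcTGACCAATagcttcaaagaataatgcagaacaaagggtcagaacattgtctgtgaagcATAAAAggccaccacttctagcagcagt
Hbb-bs: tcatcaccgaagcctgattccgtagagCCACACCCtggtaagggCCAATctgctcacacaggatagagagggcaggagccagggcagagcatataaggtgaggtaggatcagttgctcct
Hbb-bt: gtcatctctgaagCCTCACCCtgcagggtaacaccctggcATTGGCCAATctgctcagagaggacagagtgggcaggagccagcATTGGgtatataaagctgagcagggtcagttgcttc

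In Hbb-y the letters TGACCA ran from base -86 to base -81 and shared bases with the CCAAT box at -83 to -79. TGACCA was not in the 250 bases before the start of Hbb-bs or Hbb-bt, which held CCNCACCC at -93 to -86 and at -107 to -100. The Hbb-y stretch printed holds the near match ctccaccc, which the exact search did not mark. Of 32851 mouse promoter windows of 250 bases, 11.4% held TGACCA, 14.9% CCNCACCC, 33.8% CCAAT and 17.0% ATAAAA on either strand. The motif of the erythroid factor GATA1, searched as NGATAA and found in 22.5% of windows, occurred once in each of the 3 globin promoters, outside the stretch printed. AACAAT, a core sequence of SOX proteins present in 9.42% of windows, was in none of the 3. Only these exact letters were searched, and the Hbb-y stretch printed holds the near match aacaaa. The search therefore cannot show that a SOX site is absent.

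Library totals ranged from 13187094 to 15366021 counts, and 13000 genes were tested with edgeR. Levels are in CPM after TMM scaling of the library totals. The erythroid gene Slc4a1, for the red cell anion exchanger band 3, was at 15773 to 19423 CPM in every library. This level cannot show how pure the TER119 sort was, and the granulocyte gene Mpo was at 383.0 to 547.7 CPM. The targeted gene Csnk2b had 185.7, 186.3 and 169.5 CPM in the controls and 111.6 and 95.58 CPM in KO, a log2 fold change of -0.80 ± 0.09 (SE; edgeR adjusted p = 0.0018). Its counts cover the whole gene, and which exons are floxed is not stated in the labels. Counts of Uty, Kdm5d, Ddx3y and Eif2s3y on the Y chromosome summed to 1142 in control replicate 3 and to at most 2 elsewhere, while Xist in that library was at 546.6 CPM beside 788.4 to 1026 CPM in the others. KO replicate 2 stood apart in Hbb-y and in the alpha-type embryonic gene Hba-x, but not in Hbb-bh1, where KO replicate 1 was the lowest library. The fold changes of Hbb-y and Hba-x are given with and without it. A fit that leaves out 1 KO library takes the lone KO library to vary like the controls.

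Of the 10 members, Hbb-y was higher in KO cells and passed the test, and the other 9 did not pass. This count of 1 (edgeR adjusted p below 0.05) compares with 6.98% of all genes tested that passed in either direction, 5.15% upward and 1.83% downward, so the share of members called was near the background. By unadjusted p below 0.05 in edgeR, 1 member was higher and 4 were lower, beside 1864 higher and 1233 lower of 13000 genes tested. Among the members DESeq2 called 0 higher and 2 lower, Hbb-bh1 and Sox6, and limma-voom called none. The median log2 fold change was -0.10 over the members and 0.015 over all genes tested. Both KO libraries lay above all controls for Hbb-y and below all controls for Hbb-bh1, Bcl11a, Zbtb7a and Sox6. Such a split was found in 21.9% of all genes tested upward and 19.3% downward.

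**Figure D1:**
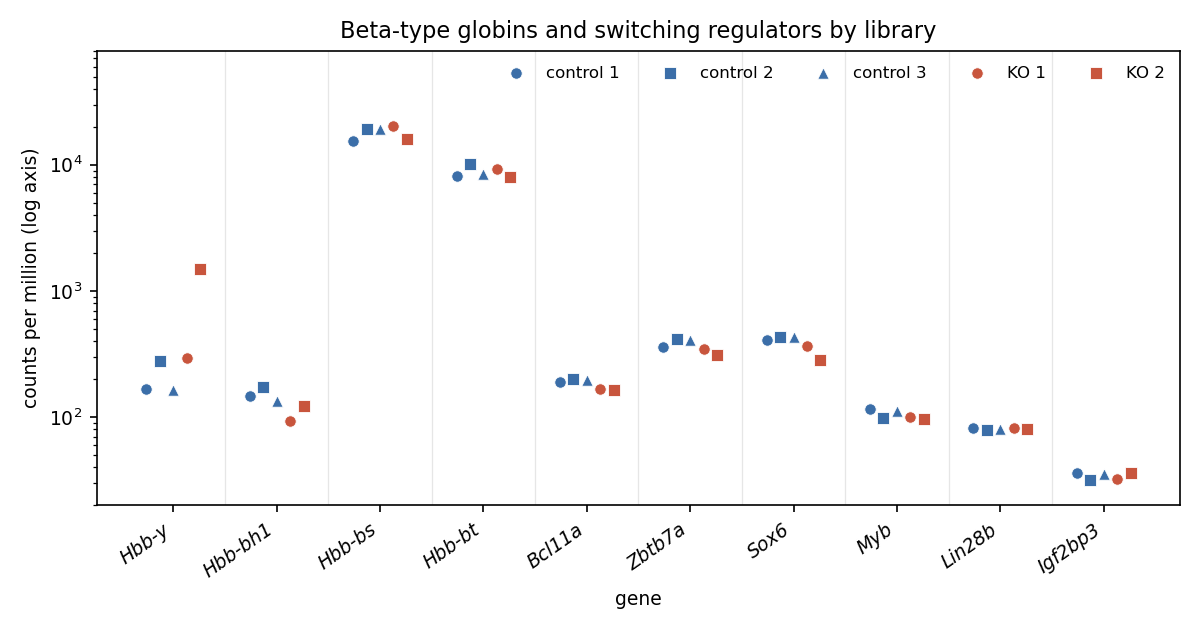
CPM (log axis) of the 10 members in each library, controls in blue and KO in red, with the symbol shape giving the replicate. Hbb-y in KO replicate 2, at 1495 CPM, stands far above the other 4 libraries, which lie between 163.6 and 295.5 CPM, while Lin28b and Igf2bp3 overlap between groups.

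Hbb-y encodes the εy chain, the main embryonic beta-type globin at the end of primitive red cell production. In control replicates 1, 2 and 3 its level was 167.3, 277.3 and 163.6 CPM, and KO replicates 1 and 2 held 295.5 and 1495 CPM. The excess was thus mostly in 1 library: KO replicate 2 was 7.37-fold above the control mean, and KO replicate 1 only 1.07-fold above control replicate 2, the highest control. The controls themselves spread 1.69-fold from lowest to highest. On average the controls had 202.7 CPM ± 64.6 (SD, n = 3) and the KO libraries 895.1 CPM ± 847.9 (SD, n = 2). By edgeR Hbb-y was 4.42-fold higher (log2 fold change 2.15 ± 0.52 (SE); adjusted p = 0.042).

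The call on Hbb-y depended on the libraries and the tool. Without KO replicate 2 its log2 fold change was 0.54 (edgeR adjusted p = 0.31), and without control replicates 1, 2 and 3 the adjusted p was 0.17, 0.11 and 0.12 at log2 fold changes of 2.02, 2.44 and 2.01. With DESeq2 the adjusted p was 0.082 and with limma-voom 0.094. The direction was upward in each of these fits. In bulk RNA, more cells that express a gene and more RNA per cell cannot be told apart, and this holds for every member.

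Hbb-bh1, the embryonic gene next to Hbb-y in the locus, was lower in both KO libraries. It was at 147.1, 173.3 and 133.9 CPM in the controls and 92.77 and 122.8 CPM in the KO libraries, without overlap. The lowest value was in KO replicate 1. It did not pass in edgeR, at a log2 fold change of -0.49 ± 0.14 (SE; adjusted p = 0.067). It did pass with DESeq2 (adjusted p = 0.0044) and without KO replicate 2, where the log2 fold change was -0.71 (edgeR adjusted p = 0.018) and the lone KO library was taken to vary like the controls.

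The adult genes, which carry most of the beta-type signal, did not differ beyond their spread. Hbb-bs was at 15462, 19046 and 19169 CPM in the controls and at 20197 and 16067 CPM in the KO libraries. Hbb-bt was at 8075, 10146 and 8378 CPM in the controls and at 9218 and 7980 CPM in the KO libraries. Both groups overlapped for both genes. The log2 fold change was 0.02 ± 0.16 (SE) for Hbb-bs and -0.04 ± 0.14 (SE) for Hbb-bt, with edgeR adjusted p-values of 0.96 and 0.89. The sign of both turned when single libraries were left out. The ratio of Hbb-bs to Hbb-bt counts lay between 1.88 and 2.29 in all 5 libraries.

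Per kilobase of annotated exon, the control levels ran from the adult genes to the embryonic genes and then to the regulators. Hbb-bs was at 23298 ± 2742 and Hbb-bt at 12612 ± 1591 CPM per kilobase (SD, n = 3). Hbb-y followed at 320.3 ± 102.1 and Hbb-bh1 at 247.0 ± 32.7 CPM per kilobase, neighbours in this order whose means differed by less than the SD of Hbb-y. Among the regulators Zbtb7a came first at 57.9 ± 4.32 CPM per kilobase, then Sox6 at 28.6 ± 0.84 and Bcl11a at 14.8 ± 0.44. Myb at 12.2 ± 1.04, Lin28b at 8.86 ± 0.16 and Igf2bp3 at 4.21 ± 0.29 CPM per kilobase closed the order. The exon lengths are those of all annotated isoforms together, 13175 bases for Bcl11a and 14832 for Sox6, which lowers the per-length level of genes with long or many isoforms.

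Of a library's beta-type globin counts, the embryonic genes gave 1.32%, 1.52% and 1.07% in the 3 controls, 1.30% in KO replicate 1 and 6.30% in KO replicate 2. The exact (Clopper-Pearson) 95% intervals were 1.27% to 1.34% for KO replicate 1 and 6.23% to 6.38% for KO replicate 2, and they cover counting error only. KO replicate 1 thus lay among the controls and KO replicate 2 far above them. As a log2 ratio of embryonic to adult counts, the controls averaged -6.26 ± 0.26 (SD, n = 3) and the KO libraries -5.07 ± 1.66 (SD, n = 2). The difference of 1.19 had an exact two-sided permutation p of 0.6 (Benjamini-Hochberg adjusted p = 0.69 over 8 ratios), and the groups overlapped. With 3 against 2 libraries the smallest p of this test is 0.2. Without KO replicate 2 the difference was 0.016, and without KO replicate 1 it was 2.37.

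**Figure D2:**
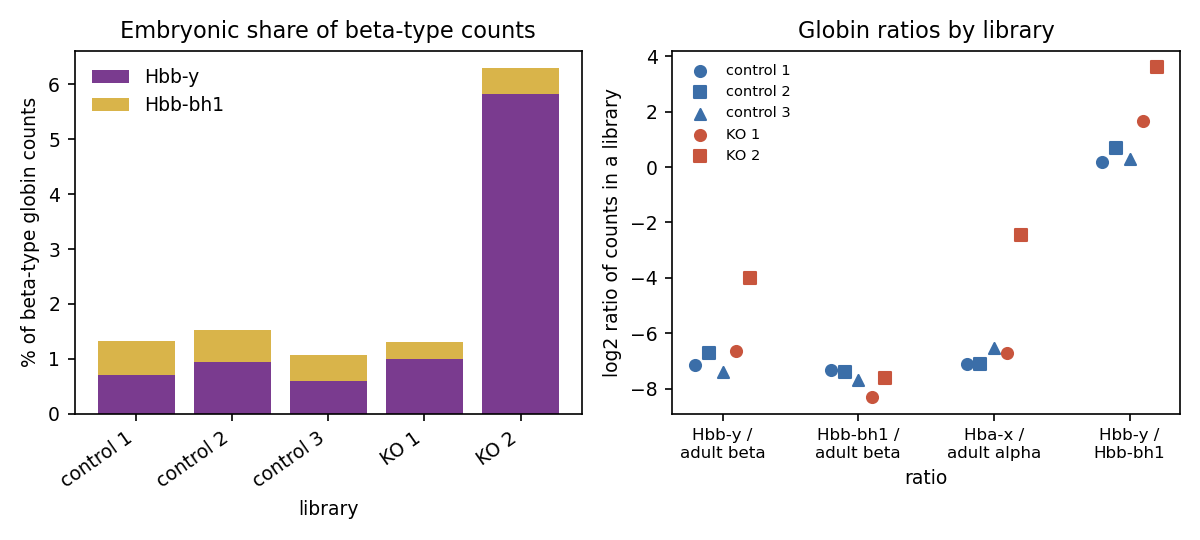
Left, the share of beta-type globin counts from Hbb-y and Hbb-bh1 in each library, in percent. Right, log2 ratios of counts within each library, with adult beta standing for Hbb-bs plus Hbb-bt and adult alpha for Hba-a1 plus Hba-a2. The KO 2 bar reaches 6.30% where the others lie between 1.07% and 1.52%, and in the ratio of Hbb-y to Hbb-bh1 both KO libraries lie above the controls.

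Within the embryonic pair, both KO libraries had more Hbb-y for each Hbb-bh1. The controls held 1.14, 1.60 and 1.22 counts of Hbb-y per count of Hbb-bh1, KO replicate 1 held 3.19 and KO replicate 2 held 12.2. No KO library overlapped the controls. The log2 ratio averaged 0.38 ± 0.26 (SD, n = 3) in the controls and 2.64 ± 1.37 (SD, n = 2) in KO, a difference of 2.25 with an exact two-sided permutation p of 0.2, the smallest that this design allows. The Benjamini-Hochberg adjusted p over the 8 ratios was 0.69. Without KO replicate 2 the difference was 1.29. Hbb-y alone against the adult genes also lay above the controls in both KO libraries, by 1.76 on the log2 scale (exact two-sided permutation p = 0.2). Without KO replicate 2 this difference was 0.45, and KO replicate 1, at a log2 ratio of -6.64, lay close to control replicate 2, at -6.72. Hbb-bh1 against the adult genes overlapped between groups, at a difference of -0.49 (exact permutation p = 0.4), which became -0.84 with KO replicate 2 left out and -0.15 with KO replicate 1 left out. The ratio of Hbb-y to Hbb-bh1 does not involve the adult genes, and neither embryonic transcript shared a 50-base window with another gene.

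Hba-x, the embryonic zeta globin of the alpha-type locus, was high in the same library as Hbb-y. It had 128.7, 179.1 and 164.2 CPM in the controls, 212.6 CPM in KO replicate 1 and 2462 CPM in KO replicate 2 (log2 fold change 3.09 ± 0.72 (SE); edgeR adjusted p = 0.036). With DESeq2 the adjusted p was 0.065 and with limma-voom 0.13. Without KO replicate 2 the log2 fold change was 0.43 (edgeR adjusted p = 0.16), and without control replicates 1, 2 and 3 the adjusted p was 0.15, 0.15 and 0.097. Against the adult alpha-type genes, Hba-x gave 0.73, 0.72 and 1.09 counts per 100 in the controls, 0.96 in KO replicate 1, within the control range, and 18.1 in KO replicate 2. Sequence shared between Hba-a1 and Hba-a2 was not searched, so this ratio too is used only to compare libraries. Adult Hba-a1 and Hba-a2 did not pass, at log2 fold changes of -0.11 ± 0.25 and -0.10 ± 0.26 (SE; edgeR adjusted p = 0.84 and 0.86). Of the other beta-locus genes, Hbb-bh0 had 2, 7 and 7 counts in the controls and 3 and 55 in KO replicates 1 and 2, while Hbb-bh2 and Hbb-bh3 had at most 6 in any library. These 3 were below the filter and were not tested. The theta-type genes Hbq1a and Hbq1b did not pass, at log2 fold changes of 0.21 ± 0.37 and 0.08 ± 0.14 (SE; edgeR adjusted p = 0.78 for both).

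Hba-x and Hbb-y had the highest levels in KO replicate 2 relative to KO replicate 1. Among 8115 tested genes with a mean of at least 10 CPM, Hba-x had the highest ratio of KO replicate 2 to KO replicate 1, at 11.6, and Hbb-y the next, at 5.06. Hbb-bh1 had a ratio of 1.32, which 5.24% of these genes exceeded. Sox6, at 0.77, lay near the other end, with 288 genes lower. Genes were also ranked by how closely their profile over the 5 libraries followed that of each embryonic gene, as the Euclidean distance between log2 CPM values centred on their mean. For Hbb-y the nearest 3 of 7627 candidates were Dnph1, a nucleotide hydrolase gene, at a distance of 0.79, then Hba-x at 1.08 and Il4ra, for the alpha chain of the interleukin 4 receptor, at 1.31. Dnph1 was at 17.9, 19.4 and 15.7 CPM in the controls and at 39.9 and 109.4 CPM in the KO libraries. Without KO replicate 2, the log2 fold change was 1.17 for Dnph1 and 1.41 for Il4ra, beside 0.54 for Hbb-y. The rise of these 2 genes thus rested less on that library. For Hbb-bh1 the nearest were Mettl26, Rec114 and Inafm2, at 0.25 to 0.28.

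Among the repressors of the embryonic genes, Bcl11a, Zbtb7a and Sox6 were each lower in both KO libraries than in any control, and none passed the test. Bcl11a was at 188.8, 199.2 and 198.3 CPM in the controls and at 167.5 and 163.7 CPM in the KO libraries. Its KO libraries lay close together, and the log2 fold change was -0.24 ± 0.07 (SE; edgeR adjusted p = 0.066). With any 1 library left out, the log2 fold change of Bcl11a lay between -0.28 and -0.23, and it passed when KO replicate 1 was the library left out (edgeR adjusted p = 0.026).

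Zbtb7a, the gene for LRF, was at 360.6, 414.9 and 407.4 CPM in the controls and at 344.2 and 309.9 CPM in the KO libraries. The highest control was 1.15-fold above the lowest, and KO replicate 1 lay just under the lowest. The log2 fold change was -0.27 ± 0.09 (SE; edgeR adjusted p = 0.11). With KO replicate 2 as the lone KO library Zbtb7a passed, at -0.37 (edgeR adjusted p = 0.024), and with KO replicate 1 alone it was at -0.20 (0.3).

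Sox6 showed the largest difference of the 3 and the largest gap between the KO libraries. It was at 410.5, 430.7 and 433.3 CPM in the controls and at 368.9 and 283.4 CPM in the KO libraries, the lower value in the library with the most Hbb-y. The log2 fold change was -0.38 ± 0.11 (SE; edgeR adjusted p = 0.073). It passed with DESeq2 (adjusted p = 0.011). With KO replicate 1 as the lone KO library, Sox6 was at -0.21 in log2 units, with an adjusted p of 0.17 in edgeR, and with KO replicate 2 alone at -0.61 (0.0016).

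**Figure D3:**
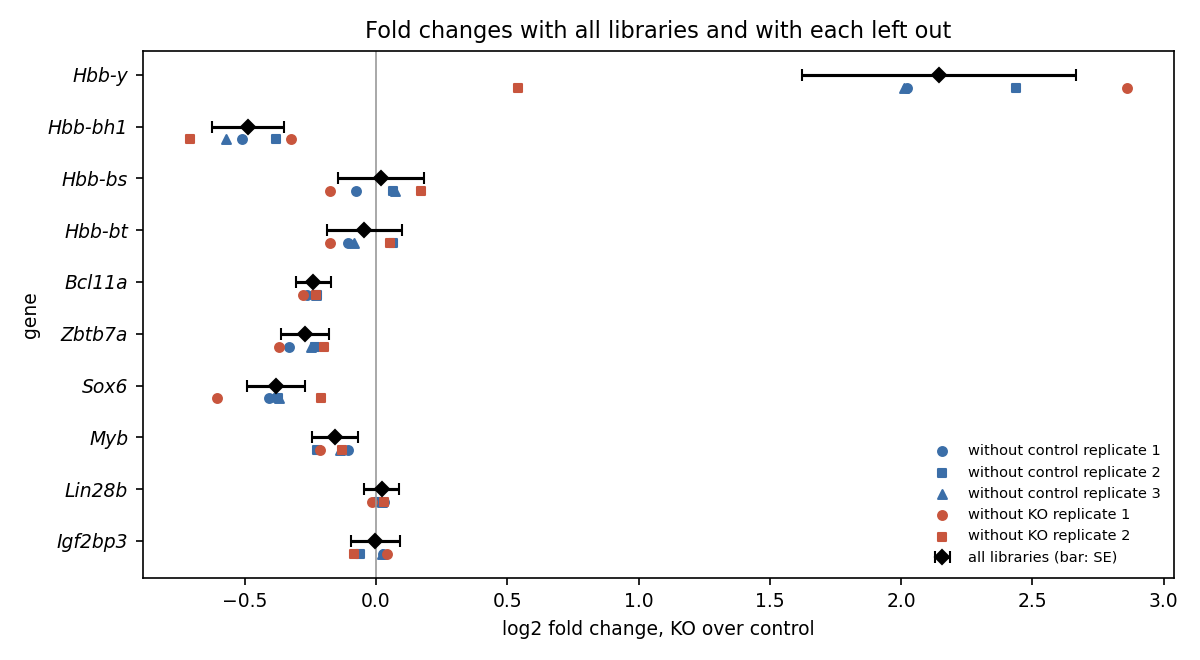
Log2 fold changes of the members, KO over control, from edgeR with all 5 libraries (black diamonds, bars of 1 SE) and with each library left out in turn (coloured symbols below). Hbb-y moves from 2.15 to 0.54 without KO replicate 2, whereas Bcl11a stays between -0.28 and -0.23.

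Myb, the progenitor transcription factor gene, was at 116.9, 99.0 and 112.3 CPM in the controls and at 100.5 and 96.0 CPM in the KO libraries. The groups overlapped, with a log2 fold change of -0.16 ± 0.09 (SE; edgeR adjusted p = 0.31). Lin28b, which blocks the maturation of let-7, was at 81.7, 78.7 and 80.7 CPM in the controls and at 82.2 and 80.8 CPM in the KO libraries. It varied least of all members between libraries, and its log2 fold change was 0.02 ± 0.07 (SE; edgeR adjusted p = 0.89). Igf2bp3, an RNA-binding protein gene of fetal cells, was at 35.8, 31.6 and 35.6 CPM in the controls and at 32.5 and 36.0 CPM in the KO libraries, with a log2 fold change of 0.00 ± 0.09 (SE; edgeR adjusted p = 0.99). Igf2bp3 overlaps Malsu1, on the opposite strand, which had 229 to 378 counts, and the labels do not say whether strand was used in counting. On simulated counts of this design, 43.8% of log2 changes of 0.5 were recovered.

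Of 25 genes for the corepressors and silencing enzymes that act with BCL11A and ZBTB7A, 1 rose and 0 fell in edgeR. Of all genes tested, 5.15% rose and 1.83% fell. The median log2 fold change of the list was 0.00. By unadjusted p below 0.05, 3 were higher and 2 lower, beside 1864 higher and 1233 lower of 13000 genes tested. Leaving out KO replicate 1 put the list median at 0.02. The member that rose was Chd3, which encodes a remodelling ATPase of NuRD complexes. It was at 29.4, 30.8 and 29.7 CPM in the controls and at 52.7 and 55.3 CPM in the KO libraries, alike in both. Its log2 fold change was 0.85 ± 0.08 (SE; edgeR adjusted p = 0.00065), and it passed without any 1 library. Chd4, for the related ATPase, was at 622.8 to 643.5 CPM in the controls and at 583.2 and 626.0 CPM in the KO libraries.

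Of 19 activators and looping factors of the locus, none passed in edgeR, DESeq2 or limma-voom. By unadjusted p below 0.05 in edgeR 1 was higher and 3 lower, beside 1864 higher and 1233 lower of 13000 genes tested. Leaving out KO replicate 1 put the list median at -0.13 in place of -0.05. Tal1, a core erythroid transcription factor gene, was at 1232 to 1314 CPM in the controls and at 1326 and 1225 CPM in the KO libraries. Zfpm1, for the GATA1 cofactor FOG1, was at 750.6 to 862.1 CPM in the controls and at 785.0 and 760.0 CPM in the KO libraries. Gata1 and Klf1, chosen after their values were seen, had log2 fold changes of -0.05 ± 0.08 and -0.21 ± 0.10 (SE; edgeR adjusted p = 0.76 and 0.23).

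Of 17 other transcriptional regulators of switching, 1 fell and 0 rose in edgeR, with a median of -0.11. Of all genes tested, 1.83% fell and 5.15% rose. By unadjusted p below 0.05, 3 were higher and 5 lower, beside 1864 higher and 1233 lower of 13000 genes tested. DESeq2 called 1 higher and 2 lower, beside 537 higher and 301 lower of all genes. Leaving out KO replicate 1 put the list median at -0.18. The member that fell was Ikzf1, for the lymphoid and erythroid zinc finger protein IKAROS. It was at 416.1, 438.6 and 438.4 CPM in the controls and at 357.9 and 305.3 CPM in the KO libraries, lower in both and lowest in KO replicate 2. Its log2 fold change was -0.38 ± 0.09 (SE; edgeR adjusted p = 0.037). The call on Ikzf1 was lost when any 1 control (edgeR adjusted p of 0.11 to 0.14) or KO replicate 2 (0.071) was left out. Nfix and Hic2, chosen after their values were seen, were at log2 fold changes of 0.42 ± 0.11 and 0.27 ± 0.09 (SE; edgeR adjusted p = 0.056 and 0.12). Both are among the 3 higher by unadjusted p. Of the 5 lower, Kit, also chosen afterwards, was at -0.30 ± 0.08 (SE; edgeR adjusted p = 0.059).

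In the LIN28, let-7 and IGF2BP list, which holds Lin28b and Igf2bp3 themselves, 1 of 17 genes rose and 0 fell in edgeR. Their median was 0.02, and of all genes tested 5.15% rose and 1.83% fell. By unadjusted p below 0.05, 1 was higher and 1 lower, beside 1864 higher and 1233 lower of 13000 genes tested. DESeq2 and limma-voom each called 1 higher and 0 lower. Over all genes, DESeq2 called 537 higher and 301 lower, and limma-voom 612 and 230. Leaving out KO replicate 1 put the list median at 0.004. The member that rose was Arid3a, a DNA-binding protein gene, at 53.0, 46.9 and 54.1 CPM in the controls and 64.4 and 70.4 CPM in the KO libraries. Its log2 fold change was 0.39 ± 0.09 (SE; edgeR adjusted p = 0.031), and the call was lost when any 1 control or KO replicate 2 was left out (adjusted p of 0.075 to 0.12).

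**Figure D4:**
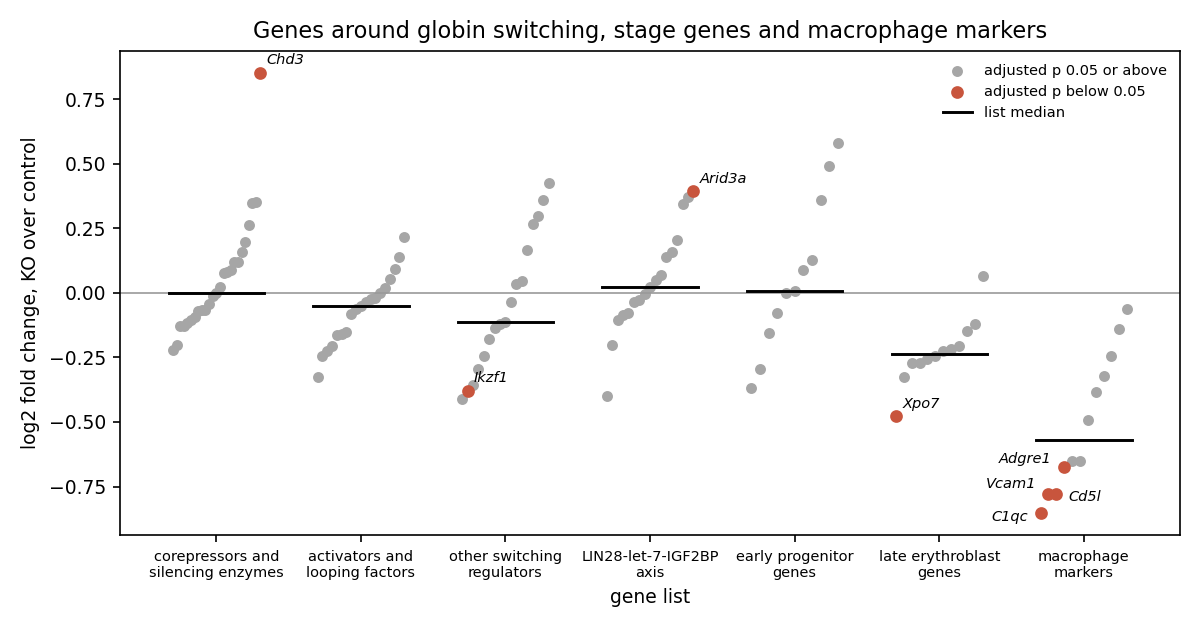
Log2 fold changes, KO over control, of the tested genes of 7 lists, each point a gene and each black line a list median. Points in red passed at an edgeR adjusted p below 0.05, which 1 gene did in 4 of the lists, 4 macrophage markers did and no activator or early progenitor gene did. The medians run from 0.02 for the LIN28 list to -0.57 for the macrophage markers.

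Genes of late erythroblasts were mostly lower in KO. Of 12 measured, 11 had a log2 fold change below 0, with a median of -0.24, beside 6171 of 13000 genes and a median of 0.015 overall. Xpo7, for a nuclear transport receptor, was the 1 gene to pass (log2 fold change -0.48 ± 0.12 (SE); edgeR adjusted p = 0.047), and it missed the threshold with RLE scaling (0.051), without any 1 control (0.14 to 0.17) and without KO replicate 2 (0.051). The summed level was 38301 to 42034 CPM in the controls, 38099 CPM in KO replicate 1 and 32362 CPM in KO replicate 2. Slc4a1 alone gave 15773 to 19423 CPM of this sum in each library. A relation of the sum to Hbb-y or Sox6 was not tested. At an unadjusted p below 0.05 in edgeR 6 of the 12 were lower, beside 1233 of 13000 genes tested, and DESeq2 called 2. Leaving out KO replicate 1 gave 9 lower in edgeR and a list median of -0.37, and leaving out KO replicate 2 gave 0 lower and -0.13. Of 11 early progenitor genes none passed in edgeR, with a median of 0.01. By unadjusted p below 0.05, 1 was higher and 1 lower, beside 1864 higher and 1233 lower of 13000 genes tested. DESeq2 called 0 higher and 1 lower, beside 537 higher and 301 lower of all genes. Leaving out KO replicate 1 put the median of the early progenitor genes at 0.08. The most abundant, Ncl and Nop56, genes of the nucleolus, had log2 fold changes of 0.01 ± 0.11 and 0.00 ± 0.08 (SE). The part of maturation stage in the values of the members was not tested.

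Among the markers of other cells in the sort, only macrophage markers passed in edgeR with all libraries. Of 12 macrophage markers 4 fell, beside 1.83% of all genes tested. This number was 2, 0 and 1 without control replicates 1, 2 and 3. All 12 had a log2 fold change below 0, beside 6171 of 13000 genes tested, and none was at 0 counts in all libraries. Their summed level was 213.7 to 246.8 CPM in the controls and 187.8 and 154.0 CPM in the KO libraries. Cd5l, Adgre1 and Vcam1 had log2 fold changes of -0.78, -0.68 and -0.78 (edgeR adjusted p = 0.012, 0.016 and 0.017). Cd5l missed the threshold without control replicate 2 (0.065), Adgre1 without any 1 control (0.063 to 0.072), and Vcam1 without any 1 control (0.059 to 0.08) or KO replicate 2 (0.068). Of the hepatocyte, granulocyte and mast cell, megakaryocyte, and B and T cell markers none passed in edgeR, with 10, 9, 6 and 5 genes tested. By unadjusted p below 0.05, 2 megakaryocyte markers were higher and 1 lower, and 0 granulocyte and mast cell markers were higher and 1 lower. Of all 13000 genes tested, 1864 were higher and 1233 lower by this measure. DESeq2 called 1 megakaryocyte marker higher, beside 537 of all genes. Without KO replicate 1 the median log2 fold change of the megakaryocyte markers was 0.375, in place of 0.224. That of the B and T cell markers was then -0.343, over 6 genes. The summed hepatocyte markers, led by Afp and Alb, were at 226.7 to 359.9 CPM in the controls and at 268.1 and 319.8 CPM in the KO libraries. The granulocyte and mast cell markers, led by Mpo and S100a9, were at 540.0 to 773.9 CPM and at 739.3 and 622.7 CPM. The megakaryocyte markers, led by Vwf and Itga2b, were at 109.6 to 116.4 CPM in the controls and at 120.1 and 156.9 CPM in the KO libraries. The B and T cell markers, led by Lck and Cd79b, summed to at most 20.4 CPM in any library, with Cd3e and Cd8a at 0 counts in all. The part of these cells in the values of the members was not tested.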

How the data were processed

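RNA from 3 control and 2 KO libraries was compared. The deposited table holds whole-number read counts per Ensembl gene, not normalised by the authors. The build mm10 and the tools STAR, Bowtie, HTSeq and cutadapt come from the submitters' processing notes. Tool versions, strand use and the handling of multi-mapped reads are not given there. Of 39179 identifiers 37607 matched a symbol in GENCODE M21 (GRCm38). Ahsp, Hbb-b1 and Hbb-b2 were listed but not matched.

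The quasi-likelihood test of edgeR 4.0.16 (R 4.3.3) was run on the counts, with TMM scaling, filterByExpr (13000 genes kept), the group as the only term and Benjamini-Hochberg adjustment over all genes kept at 0.05. Each SE is the log2 fold change divided by the root of its F value. On 5 sets of simulated counts for these 13000 genes, 83.9% of changes of 1 and 98.0% of changes of 2 on the log2 scale were recovered. Ratios of counts within a library used a pseudocount of 0.5 and exact permutation over the 10 assignments (scipy 1.17.1). Promoters came from the RefSeq table on GRCm38.p6, which matched 9 of 10 members and not Hbb-bh1.

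The members and lists were chosen with earlier results of these data known. Genes named from a list were up to 3 past the threshold with the smallest p, or else the 2 most abundant. For Hbb-y and Hbb-bh1 the 3 nearest profiles at 10 CPM or more were named, leaving out predicted genes, RIKEN clones and pseudogenes. Slc4a1, Mpo, Chd4, Gata1, Klf1, Nfix, Hic2 and Kit were added after their values were seen. Alternatives were RLE scaling, library sizes without globin genes, DESeq2 1.42.0, limma-voom (limma 3.58.1), no filter, at least 5 CPM in 2 libraries, a replicate block and leaving out each library. Leaving out libraries for the other 6 ratios was chosen after seeing the data. The labels do not say whether each library is 1 animal, a pool or a repeat, although Y-linked counts set control replicate 3 apart, so p-values reflect the spread between these samples, part of which may be technical.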

Additional observations from a re-analysis of the deposited data

How the results depend on the processing

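All genes tested with edgeR gave 669 higher and 238 lower in KO, and 235 and 53 without a filter on low counts. Leaving out each library in turn gave 210 to 1709 higher and 31 to 1247 lower, the largest numbers without KO replicate 1, where a lone KO library was taken to vary like the controls. Of the members, 0 were higher with DESeq2, limma-voom or no filter, and 0 to 1 with each library left out. DESeq2 called 2 lower, and 0 to 3 were lower with each library left out. The 3 without KO replicate 1 were Bcl11a, Zbtb7a and Sox6, and the 1 without KO replicate 2 was Hbb-bh1. The cause of these moves was not tested.

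With each library left out in turn, the log2 fold change ran from -0.177 to 0.171 for Hbb-bs, from -0.174 to 0.063 for Hbb-bt, from -0.014 to 0.032 for Lin28b and from -0.085 to 0.043 for Igf2bp3, so these signs were not settled. Those of Hbb-y, Hbb-bh1, Bcl11a, Zbtb7a, Sox6 and Myb kept their sign in all 12 alternatives. The embryonic to adult log2 ratio differed by 1.19 and by -0.493 with Hbb-bh1 alone as the embryonic gene. With each library left out it ran from 0.016 to 2.365, the ratio of Hbb-y to Hbb-bh1 from 1.287 to 3.221 and the embryonic share from 0.001 to 5.0 percentage points.

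Replicate numbers 1 and 2 occur in both groups, but the labels state no pairs, so the numbers were not taken as pairs. Deviations of same-numbered libraries from their group mean correlated at 0.002 and 0.042. The deviations of the 2 KO libraries mirror each other by construction, so these values cannot decide whether the libraries were paired. With a replicate block, 702 genes were higher and 171 lower. This fit left 1 residual degree of freedom. It lost the calls on Ikzf1 (adjusted p = 0.13) and Xpo7 (0.23). Hbb-y was called higher (log2 fold change 1.634) and Hbb-bh1 was the 1 member called lower (-0.580), Igf2bp3 was at 0.024, and the embryonic to adult ratio differed by 1.053 over replicates 1 and 2. Depth limits Hbb-bh0, at no more than 55 counts, and not the adult beta-type globins, at 119932 counts or more. The adult genes share sequence, and the handling of reads that map to both is not stated, so their levels are uncertain.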
